A study of Mus musculus with 2 samples.

Results

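The 35 genes described here encode aminoacyl-tRNA synthetases, the enzymes that charge transfer RNA with amino acids. They are the genes, of 18193 on the array, with a probe set whose single platform symbol has the pattern of a synthetase name. The symbol decided the compartment: 16 genes ending in 2 were counted as mitochondrial and the other 19 as cytosolic. Of the cytosolic genes, Gars and Kars are known to make a mitochondrial enzyme as well. Where a gene had several probe sets, the brightest over both arrays stood for it, and 32 members whose mean log2 value reached 6 were called measured. All 19 cytosolic genes and 13 of the 16 mitochondrial ones passed this minimum, and Sars2, Wars2 and Mars2 did not.

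The enzymes attach each amino acid to its transfer RNA, the step that sets the genetic code before a ribosome reads a message. Animal cells carry a cytosolic set, which serves protein synthesis on cytosolic ribosomes, and a set encoded by other nuclear genes that is imported into mitochondria and serves translation of the mitochondrial genome. Several cytosolic synthetases are held with scaffold proteins in the multisynthetase complex, and ATF4, the transcription factor of the integrated stress response, is known from cultured cells to induce many of the cytosolic ones together with asparagine synthetase. Liver makes most plasma proteins, so hepatocytes charge transfer RNA at a high rate.

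The study compared untreated Yap+/- mice, with 1 disrupted copy of Yap1, with untreated Yap+/+ mice, which carry both copies. The line had been crossed to C57BL/6 mice for at least 6 generations, and livers were taken on postnatal day 30. YAP, the protein of Yap1, is a transcriptional co-activator that the Hippo pathway restrains and that promotes liver growth. For each genotype 5 livers were pooled and hybridised to 1 Affymetrix array, so each value below is a single measurement of a pool, with no replicate, no error and no test between genotypes. The labels name no promoter or cell type that would limit the disruption, and they state neither the sex of the mice nor their feeding.

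The arrays read as liver. All 7 hepatocyte markers were between 12.07 and 15.09 on the log2 scale in Yap+/- liver and between 12.29 and 15.09 in Yap+/+ liver, and their summed level was 17.38 in both. Yap1 read 9.24 in Yap+/- and 9.40 in Yap+/+ liver, a difference of -0.15, and the labels do not say whether its probes lie in the disrupted part of the gene. Control transcripts had a larger 3-prime over 5-prime excess in the Yap+/- sample, by 0.20 for Actb, 0.22 for Gapdh and 0.21 for Pcx. Of the macrophage markers, 12 of 12 read higher in Yap+/- liver, with a summed level of 13.68 in Yap+/- and 13.37 in Yap+/+ liver on the log2 scale. The 3 smooth muscle markers read lower, with a summed level of 8.79 in Yap+/- and 9.74 in Yap+/+ liver. Summed neutrophil markers, with 1 of 3 measured, read 7.81 in Yap+/- and 6.51 in Yap+/+ liver. Sinusoidal endothelial markers, with 6 of 7 measured, summed to 12.28 in Yap+/- and 12.04 in Yap+/+ liver. Lymphocyte markers, with 1 of 5 measured, summed to 8.23 in Yap+/- and 7.93 in Yap+/+ liver. Of these, Ccl5 differed by 0.62, Cd8a by 0.13, Cd3e by 0.085, Cd79a by 0.085 and Cd3g by -0.16. Biliary markers, with 0 of 4 measured, summed to 7.22 in Yap+/- and 7.80 in Yap+/+ liver. Among them Krt19 differed by -1.90, Krt7 by -0.15, Epcam by -0.11 and Sox9 by 0.26. In pooled tissue, fewer cells of a type and less RNA per cell cannot be told apart, and the part of these shifts in the synthetase values was not tested.

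No measured synthetase gene differed by 1.2-fold between the genotypes. At this size, 0.26 on the log2 scale, 0 of 32 members were higher and 0 were lower in Yap+/- liver, where 11.5% of 9299 measured genes were past it, 6.02% higher and 5.45% lower. Among the 7711 measured genes within the level range of the members, 11.3% were past it, and without any minimum 0 of 35 members were, against 13.6% of all genes. At 1.1-fold 5 of 32 members were counted against 36% of measured genes, and at 1.5-fold and 2-fold 0 members against 1.34% and 0.323%. The differences of the members ran from -0.23 to 0.16, and 24 of 32 lay within 0.1 of no difference, against 50.6% of all measured genes. Their robust SD was 0.098, and that of all measured genes was 0.15. For scale, over 3406 genes with several measured probe sets, the difference on the brightest minus that on the next had a robust SD of 0.17. Most single values below are smaller than this disagreement within a gene. The choice of 1.2-fold was made with other results of these arrays known.

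**Figure D1:**
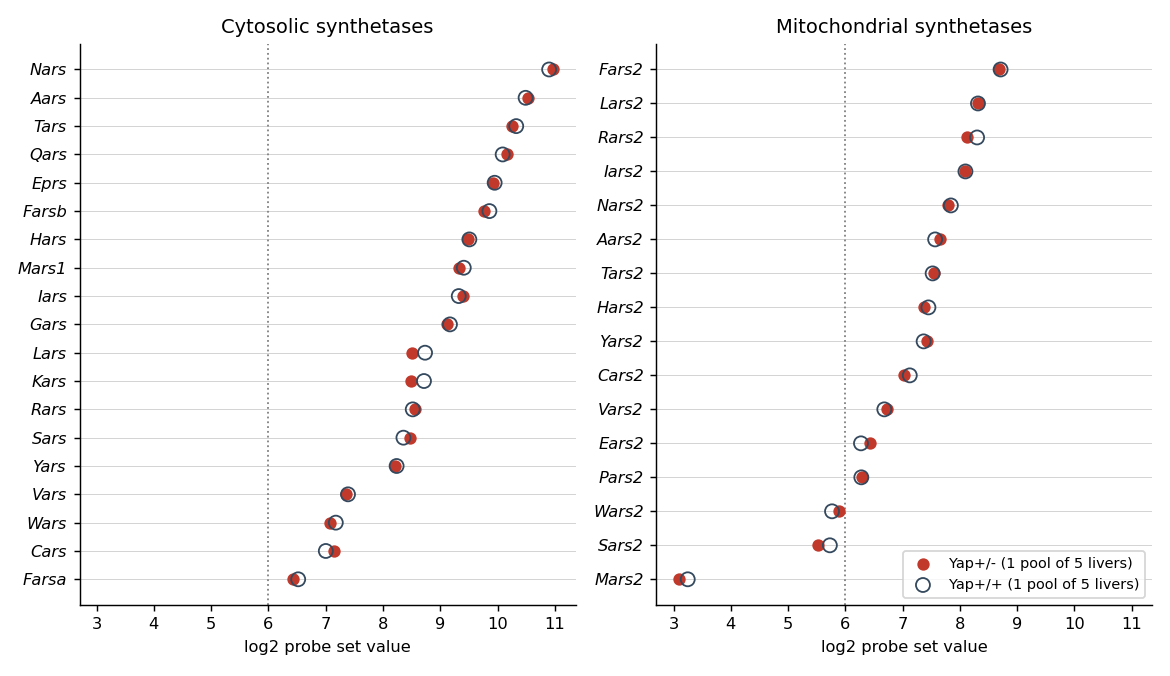
Log2 probe set values (x axis) of the 19 cytosolic and 16 mitochondrial synthetase genes in 1 pool of Yap+/- livers (filled red) and 1 pool of Yap+/+ livers (open circles). The dotted line marks the minimum of 6 for a measured gene, under which Sars2, Wars2 and Mars2 lie, and the filled and open points of measured genes are furthest apart for Lars and Kars, at -0.23 and -0.22.

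The promoters of several cytosolic members carry the DNA element through which ATF4 is known to act. It is shown because Asns, a known ATF4 target, was 2.11-fold higher in Yap+/- liver. Of the 5 members found with the element, 0 were past 1.2-fold, against 11.5% of all measured genes. In so small a set, a count of 0 lies near that share. Asns had the largest difference of the ATF4-responsive genes outside the family and was picked with its value known. The composite element TGATGNAA, read on either strand (TTNCATCA on the other), was searched in RefSeq windows of mouse build GRCm38.p6 that run from 250 bases before a gene's start to 50 bases after it, with the start as that promoter table places it. The table held windows for 12 cytosolic and 14 mitochondrial members. The element was present in 5 of the 12 cytosolic windows, in 0 of the 14 mitochondrial ones, in 9 of 26 windows of ATF4-responsive genes outside the family, and in 4.51% of all 27025 genes. The 4 sequences below are the 120 bases before that start, on the gene's strand, with the element in capitals. They are from chr8:111033722-111033841 (plus strand) for Aars, chr6:55037881-55038000 (plus strand) for Gars, chr15:11399659-11399778 (minus strand) for Tars and chr6:7693210-7693329 (minus strand) for Asns. For Aars the start used lies inside the RefSeq gene span, which begins upstream at chr8 position 111027778, while for Gars, Tars and Asns it is the first base of the gene.
Aars: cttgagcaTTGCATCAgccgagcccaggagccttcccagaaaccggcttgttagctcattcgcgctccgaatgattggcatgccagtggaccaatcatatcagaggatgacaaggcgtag
Gars: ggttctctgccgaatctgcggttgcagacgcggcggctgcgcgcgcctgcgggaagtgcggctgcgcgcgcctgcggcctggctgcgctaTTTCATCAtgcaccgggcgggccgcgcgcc
Tars: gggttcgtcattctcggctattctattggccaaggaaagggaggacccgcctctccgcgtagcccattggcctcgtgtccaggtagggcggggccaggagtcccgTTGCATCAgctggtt
Asns: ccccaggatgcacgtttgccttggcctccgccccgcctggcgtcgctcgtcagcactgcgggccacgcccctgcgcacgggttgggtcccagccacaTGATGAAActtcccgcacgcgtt
In Iars and Yars the element lies just after the start used, which in Yars is also inside the gene span (it begins at chr4 position 129189734), within the 30 bases at chr13:49682126-49682155 and chr4:129189895-129189924 (both plus strand).
Iars: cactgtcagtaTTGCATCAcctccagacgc
Yars: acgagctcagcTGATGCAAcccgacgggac

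Counted from the start used, the element begins at position -112 in Aars, -30 in Gars, -15 in Tars and -23 in Asns, and Aars has another match after its start, at position 10. In Asns it reads TGATGAAA, in Yars TGATGCAA, in Aars, Iars and Tars TTGCATCA and in Gars TTTCATCA. Asns, which makes asparagine from aspartate, read 7.10 in Yap+/- and 6.02 in Yap+/+ liver, 2.11-fold higher. Its Yap+/+ value lay close to the minimum of 6, so the size of this fold is uncertain, and only its brightest probe set is given. The 5 synthetases with the element differed by 0.046 for Aars, 0.073 for Iars, -0.036 for Yars, -0.055 for Gars and -0.076 for Tars, with both signs among them. Outside the family, other genes with the element differed by 0.61 for Chac1, 0.29 for Trib3, 0.19 for Vldlr and 0.13 for Pck2. Those under the minimum of 6 differed by 0.45 for Nupr1, 0.36 for Fgf21, 0.17 for Atf3 and -0.10 for Slc7a11. The TEAD element GGAATG, the site of the DNA-binding partners of YAP, shares no letters with that element in these windows. It was present in 1 of 12 cytosolic windows (Aars) and in 4 of 14 mitochondrial ones (Ears2, Tars2, Wars2 and Yars2), against 16.6% of all genes. A match describes these letters only and is not shown to be a binding site or a cause.

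Of the cytosolic enzymes, 12 read lower and 7 higher in Yap+/- liver, none by 1.2-fold, with a median difference of -0.033 against 0.00 over all measured genes. The lowest values belonged to enzymes of the multisynthetase complex. Lars, which charges leucine and is known as a leucine sensor of the mTORC1 pathway, read 8.51 in Yap+/- and 8.73 in Yap+/+ liver, 1.17-fold lower. Kars, which charges lysine in both compartments, read 8.49 in Yap+/- and 8.72 in Yap+/+ liver, also 1.17-fold lower. These are the furthest values of the family, and each gene has only 1 measured probe set here, so neither can be compared within the gene.

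The other measured enzymes of the complex lay closer to equality. Mars1, the methionine enzyme, read 9.33 in Yap+/- and 9.41 in Yap+/+ liver. Eprs, a fused enzyme that charges both glutamate and proline, read 9.92 in Yap+/- and 9.95 in Yap+/+ liver, and its other measured probe sets differed by -0.17 and -0.099. All 3 measured probe sets of Eprs were therefore on the lower side. Rars, the arginine enzyme, read 8.55 in Yap+/- and 8.52 in Yap+/+ liver. Iars, the isoleucine enzyme, read 9.40 in Yap+/- and 9.32 in Yap+/+ liver, while its second probe set differed by -0.014. Qars, the glutamine enzyme, read 10.17 in Yap+/- and 10.09 in Yap+/+ liver on its brightest probe set, but the others differed by -0.14 and -0.0031. Over the 7 measured enzymes of the complex 4 were lower and 3 higher, with a median of -0.033, and without Lars, the member furthest from equality, the median was -0.0011.

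Of the scaffold proteins that hold the complex, 1 of 3 was past 1.2-fold, against 11.5% of all measured genes. Aimp2 read 7.69 in Yap+/- and 7.98 in Yap+/+ liver, 1.22-fold lower. Aimp1 read 8.99 in Yap+/- and 8.97 in Yap+/+ liver. Eef1e1, the remaining scaffold, was on the other side, at 8.15 in Yap+/- and 7.98 in Yap+/+ liver. The scaffolds thus had no common direction.

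The 12 cytosolic enzymes outside the complex ran from -0.10 to 0.15. Cars, the cysteine enzyme, had the largest positive value, at 7.15 in Yap+/- and 7.002 in Yap+/+ liver, 1.11-fold higher. Sars, the serine enzyme, read 8.46 in Yap+/- and 8.36 in Yap+/+ liver, and its second probe set was also higher, by 0.067. Nars, the asparagine enzyme, read 10.97 in Yap+/- and 10.90 in Yap+/+ liver, with a second probe set at -0.063. Nars is the enzyme that uses the product of Asns, and it stayed near equality while Asns was 2.11-fold higher.

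Aars, the alanine enzyme with the ATF4 element shown above, read 10.54 in Yap+/- and 10.49 in Yap+/+ liver with its brightest probe set, but 9.18 in Yap+/- and 9.34 in Yap+/+ liver with the other. The probe sets of Aars therefore disagreed in direction, and a further probe set shared with Exosc6 differed by 0.017. Tars, the threonine enzyme, read 10.25 in Yap+/- and 10.33 in Yap+/+ liver. Gars, the glycine enzyme, read 9.11 in Yap+/- and 9.17 in Yap+/+ liver. Hars, the histidine enzyme, was nearly equal, at 9.49 in Yap+/- and 9.51 in Yap+/+ liver. Yars, for tyrosine, and Vars, for valine, were close to it in size, with differences of -0.036 and -0.030.

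Phenylalanine is charged by an enzyme of paired subunits, and both were slightly lower. Farsb, the beta subunit, read 9.76 in Yap+/- and 9.86 in Yap+/+ liver, and its other measured probe sets differed by -0.076 and -0.25. Farsa, the alpha subunit, read 6.44 in Yap+/- and 6.52 in Yap+/+ liver, and a second probe set was listed with the same value, 6.05, on both arrays. Wars, the tryptophan enzyme, which interferon-gamma is known to induce, read 7.07 in Yap+/- and 7.18 in Yap+/+ liver, with a second measured probe set at -0.22. The low side of Wars and Farsb was shared by all their measured probe sets.

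Grouped by the known architecture of the catalytic domain, the 9 class I cytosolic enzymes had a median difference of -0.030 and the 9 class II enzymes one of -0.055, with Eprs, which holds both, left out. Grouped by earlier reports from cultured cells, the 13 cytosolic enzymes commonly given as ATF4-induced had a median of -0.033 and 5 of 13 were higher. The 6 not so listed had a median of -0.050 and 2 of 6 were higher. Each of these groups had 0 members past 1.2-fold.

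**Figure D2:**
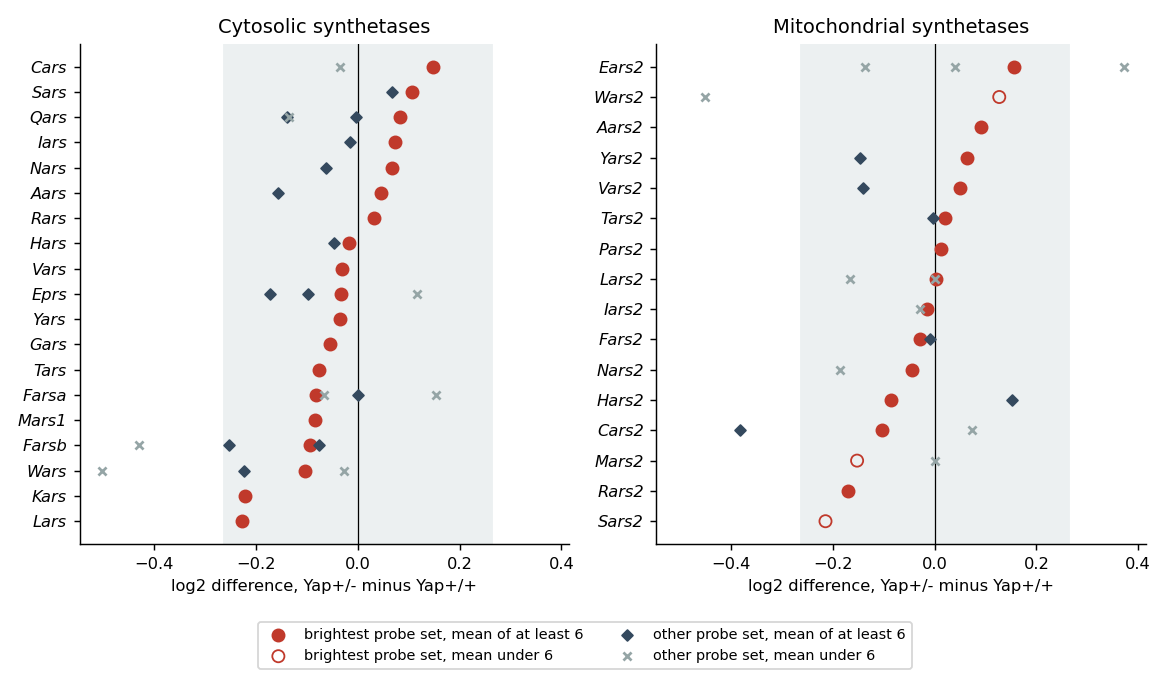
Log2 difference, Yap+/- minus Yap+/+ (x axis), of every probe set of the cytosolic and mitochondrial synthetases. Large red points are the brightest probe set of a gene (open where its mean is under 6), diamonds are other probe sets with a mean of at least 6 and crosses other probe sets under it, and the shaded band spans 1.2-fold in both directions. All red points lie inside the band, and the only diamond outside it belongs to Cars2.

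The 13 measured mitochondrial enzymes were split about equality, with 7 higher and 6 lower in Yap+/- liver, none by 1.2-fold, and a median of 0.0036. Ears2, which in mammals charges glutamate onto the mitochondrial transfer RNAs for both glutamate and glutamine, had the largest positive value, at 6.43 in Yap+/- and 6.27 in Yap+/+ liver, 1.11-fold higher. Rars2, the arginine enzyme, had the largest negative one, at 8.13 in Yap+/- and 8.30 in Yap+/+ liver, 1.12-fold lower. Both enzymes were within the disagreement between probe sets of a gene.

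Cars2, the cysteine enzyme, was the only member with a measured probe set past 1.2-fold, while 4 probe sets under the minimum, of Ears2, Farsb, Wars and Wars2, were also past it. The brightest for Cars2 gave 7.02 in Yap+/- and 7.13 in Yap+/+ liver, while the next gave 5.89 in Yap+/- and 6.27 in Yap+/+ liver, 1.30-fold lower. Both were on the lower side, and its last one, under the minimum, differed by 0.074. Hars2, the histidine enzyme, read 7.37 in Yap+/- and 7.45 in Yap+/+ liver by the brightest, but 6.91 in Yap+/- and 6.76 in Yap+/+ liver by the other. The sign of Hars2 thus depends on the probe set.

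Aars2, the mitochondrial alanine enzyme, read 7.66 in Yap+/- and 7.57 in Yap+/+ liver. Yars2 and Vars2, for tyrosine and valine, were higher by 0.064 and 0.050 on their brightest probe sets and lower, at -0.15 and -0.14, on their second ones. Neither gene therefore had a settled sign. Tars2 (0.019), Pars2 (0.013), Lars2 (0.0036), Iars2 (-0.016), Fars2 (-0.030) and Nars2 (-0.045) lay within 0.05 of equality on the log2 scale. Of the members under the minimum, Sars2 read 5.52 in Yap+/- and 5.73 in Yap+/+ liver, Wars2 read 5.89 in Yap+/- and 5.77 in Yap+/+ liver, and Mars2 read 3.10 in Yap+/- and 3.25 in Yap+/+ liver. At these levels the values are not shown to be above background, and the second probe set of Wars2, at -0.45, had the opposite sign to the first.

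The cytosolic median minus the mitochondrial one was -0.037. Single genes had a robust SD of 0.095 in the cytosolic and 0.072 in the mitochondrial set, which is a spread of genes and not the error of a median. Enzymes for the same amino acid showed no common shift. Among the 13 amino acids with both a cytosolic and a mitochondrial gene here, 10 pairs were measured on both sides, and the cytosolic difference was the higher one in 5 and the lower one in 5, with a median of 0.012. Among these 10 pairs, cysteine showed the widest gap with the cytosolic gene on the higher side, as Cars was at 0.15 and Cars2 at -0.10. Leucine showed the widest gap the other way, with Lars at -0.23 and Lars2 at 0.0036. Serine had a wider gap than cysteine, with Sars at 0.11 and Sars2 at -0.21, but Sars2 was under the minimum. In 8 of the 10 pairs the enzymes of the pair had opposite signs, in 1 pair both were higher (Aars and Aars2) and in 1 pair both were lower (Hars and Hars2). No difference between the compartments was tested, because the genes of a compartment are not replicates of a genotype.

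**Figure D3:**
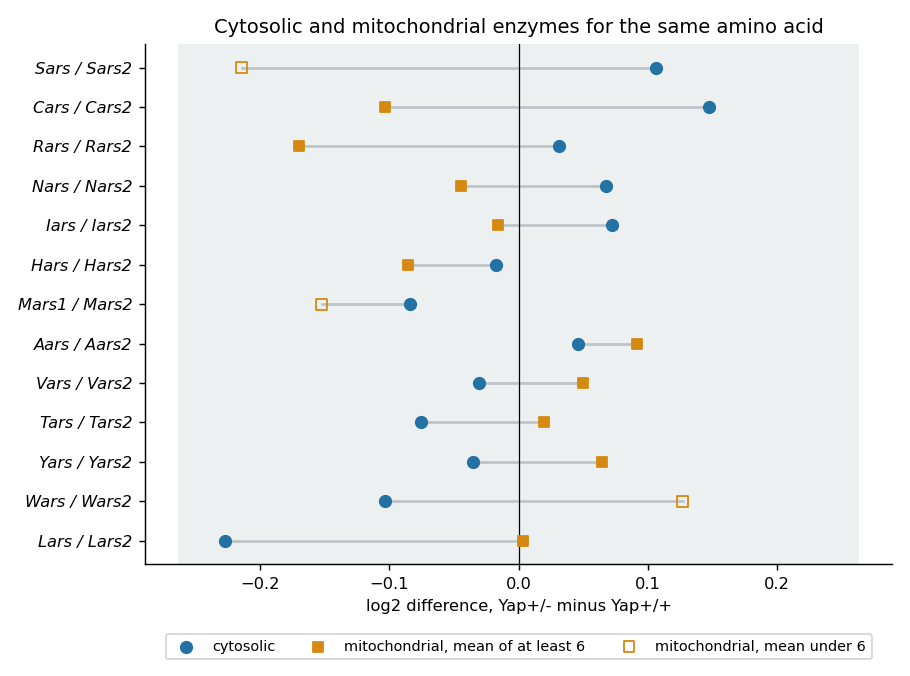
Log2 difference, Yap+/- minus Yap+/+ (x axis), of the cytosolic gene (blue) and the mitochondrial gene (orange, open where its mean is under 6) for each of 13 amino acids, ordered by the gap between them. The shaded band spans 1.2-fold, and all points lie inside it, with the cytosolic gene to the right for 5 and to the left for 5 of the 10 pairs measured on both sides.

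Many members with several probe sets gave no firm sign. Of 16 genes with more than 1 measured probe set, 7 kept 1 sign over all of them and 9 did not. Farsa is among the 9 only because a probe set was equal on both arrays, while its other measured one was lower. Among the 7, Sars was higher, while Cars2, Eprs, Fars2, Farsb, Hars and Wars were lower. Counted singly, 23 of 32 measured cytosolic probe sets and 11 of 19 mitochondrial ones were lower in Yap+/- liver, which is 71.9% and 57.9%. Over all genes the share lower was 50.4% of 14437 measured probe sets. Probe sets of a gene share its transcript, so these counts are a description, and their median was -0.051 for the cytosolic and -0.0086 for the mitochondrial set.

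Most partners of mitochondrial charging and translation read slightly lower. Of 12 measured mitochondrial translation factors and charging helpers, 10 read lower and 2 higher in Yap+/- liver, 0 of them by 1.2-fold, with a median of -0.10. Over all measured genes, 4610 of 9299 read lower, 11.5% were past 1.2-fold in either direction, and the median was 0.00. The amidotransferase that turns the glutamate placed by Ears2 into glutamine consists of Qrsl1, Gatb and Gatc. Qrsl1 read 7.45 in Yap+/- and 7.66 in Yap+/+ liver. Gatc read 7.41 in Yap+/- and 7.62 in Yap+/+ liver, and Gatb read 7.77 in Yap+/- and 7.80 in Yap+/+ liver. All 3 subunits were lower, whereas Ears2 itself was higher by 0.16.

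Mtfmt, which formylates the initiator methionyl-tRNA of mitochondria, differed by -0.19. The elongation factors Tufm and Tsfm differed by -0.097 and -0.14, and Gfm2, which acts in ribosome recycling, by -0.21, while the elongation factor Gfm1 differed by 0.036. The initiation factor Mtif2 was the highest of the list, at 0.17, and its partner Mtif3 was at -0.11. The list was not chosen independently of these arrays, so its direction is given as values only.

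Several ATF4-responsive genes outside the family read higher in Yap+/- liver while the synthetases were near equality. Of 20 measured genes of this list, 5 were at least 1.2-fold higher and 1 lower in Yap+/- liver, 30% together against 11.5% of all measured genes, with a median of 0.081. The 5 higher genes, named here after their values were seen, were Asns, Ddit3, Chac1, Cebpb and Trib3. Ddit3, the stress factor CHOP, read 8.06 in Yap+/- and 7.28 in Yap+/+ liver, 1.72-fold higher. Chac1, a glutathione-degrading enzyme, read 7.57 in Yap+/- and 6.95 in Yap+/+ liver, 1.53-fold higher. Atf4 itself read 10.13 in Yap+/- and 10.17 in Yap+/+ liver, so its own transcript was near equality.

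The ATF4 list had no common direction, as 12 of its 20 measured genes read higher and 8 lower in Yap+/- liver. Ddit4, a stress-induced inhibitor of mTORC1, read 7.41 in Yap+/- and 8.02 in Yap+/+ liver, 1.53-fold lower. Gpt2, a mitochondrial alanine aminotransferase, differed by -0.20, and Xpot, the nuclear export receptor for transfer RNA, by -0.17. With all probe sets of a gene averaged, the counts were 3 higher and 2 lower of 16, against 9.66% of measured genes past 1.2-fold. The median was then -0.023, and with probe sets free of a suffix for shared targets it was -0.025. Asns was known to differ on these arrays when the list was chosen, so the list is no independent evidence of a direction.

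**Figure D4:**
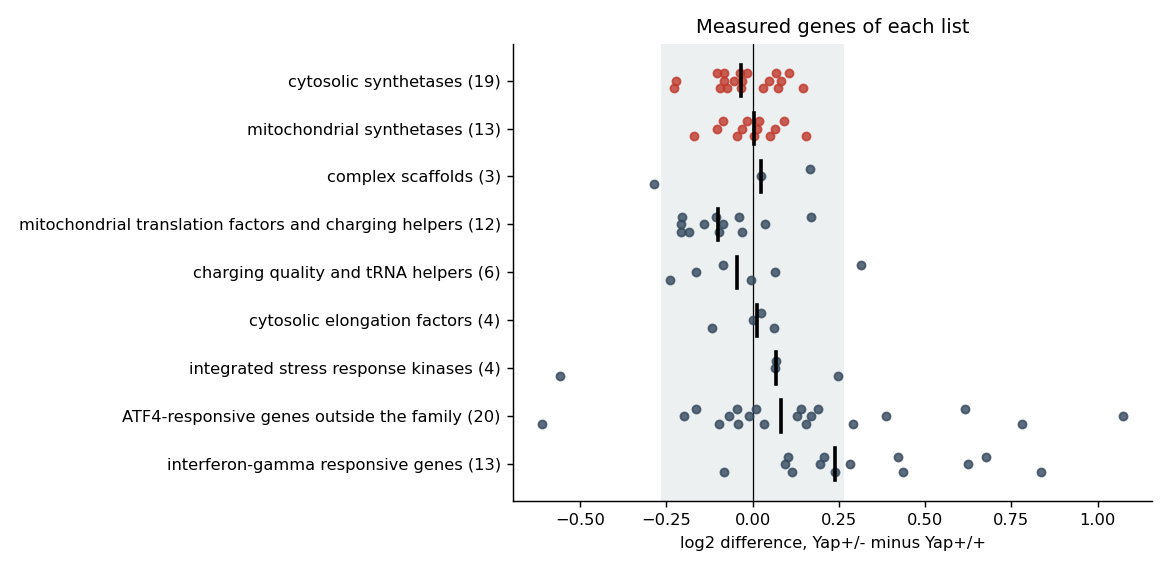
Log2 difference, Yap+/- minus Yap+/+ (x axis), of the measured genes of each list, with the number of genes in brackets, black bars at the medians and a shaded band spanning 1.2-fold. The synthetases (red) lie wholly inside the band, while 6 of 20 ATF4-responsive genes and 6 of 13 interferon-gamma responsive genes lie outside it.

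**Figure D5:**
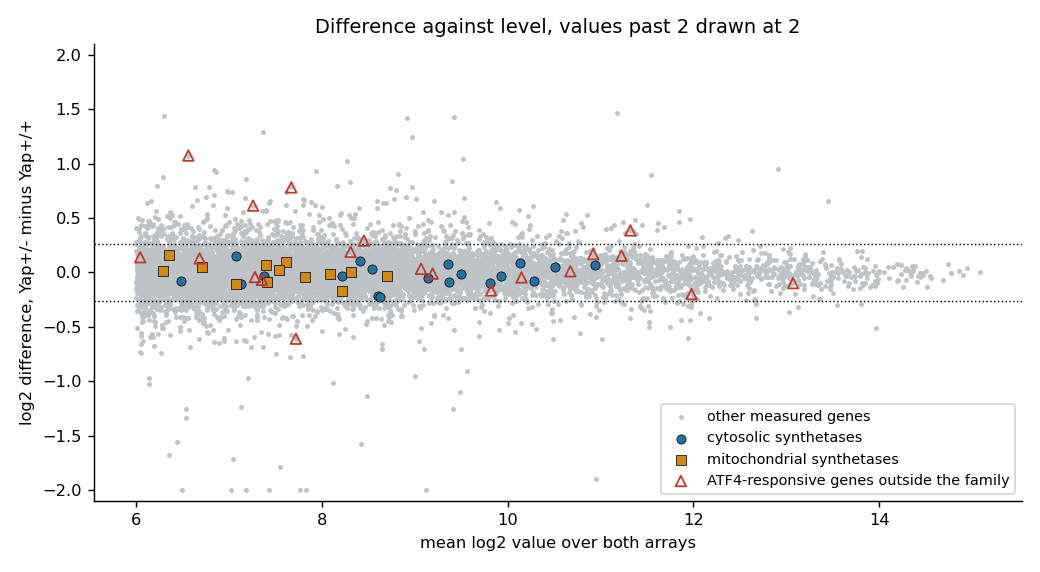
Log2 difference, Yap+/- minus Yap+/+ (y axis), against the mean log2 value over both arrays (x axis) for 9299 measured genes, with the 19 cytosolic (blue) and 13 mitochondrial (orange) synthetases and 20 ATF4-responsive genes (open triangles) marked. The dotted lines mark 1.2-fold, past which 11.5% of the genes and 0 of the 32 synthetases lie.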

How the data were processed

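The deposited table holds 45101 log2 probe set values per array, made by the authors with RMA (background correction, quantile normalisation and probe summary) and Partek 6.5, per the submitters' processing notes, which give no settings. Quantile normalisation removes any overall difference in RNA amount. RNA was labelled from the 3-prime end of messages, per the labels' protocols. Scanner files and detection calls were not used here. Gene symbols came from the platform annotation, and all 35 members matched a RefSeq identifier; 64 array controls were left out of genes. Of the members, 5 are represented by a probe set with suffix x and 3 with suffix s, which can bind related transcripts and are uncertain to that extent.

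Differences are Yap+/- minus Yap+/+ on the log2 scale. With 1 array per genotype, genes were counted past 1.2-fold. Robust SD is the scaled median absolute deviation. All members are named. Of lists over 15 genes, the 3 furthest each way are named. Of the ATF4 list, Atf4, the genes past 1.2-fold and those with the promoter element are named as well. Members and lists were chosen with earlier results of these data known. Alternatives changed the filter, probe set, scaling, pseudocount, threshold and membership. The counting was run on simulated data with planted 2-fold changes, which does not test how well smaller differences are detected. Tables were handled in pandas 2.3.3 under Python 3.11.15 with numpy 2.4.6, the trend was fitted with statsmodels 0.14.6, and plots used matplotlib 3.10.9.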

Additional observations from a re-analysis of the deposited data

How the results depend on the processing

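The count of 0 synthetases past 1.2-fold, in each direction and compartment, held without the filter (19 cytosolic and 16 mitochondrial genes), with a minimum of 7, with the mean of all probe sets, with probe sets free of a suffix, after median centring or removal of a lowess trend, with 64 added on the linear scale, without the member furthest from equality, without Gars and Kars, and at 1.5-fold and 2-fold. Some settings counted fewer cytosolic and mitochondrial genes: 18 and 10 with the minimum of 7, 16 and 8 with the mean, 15 and 10 without suffixes. The shares of measured genes past 1.2-fold there were 9.84%, 9.66% and 12%, and 5.75% with 64 added. At 1.1-fold, which 36% of measured genes passed, the count was 1 cytosolic gene higher and 2 lower, and 1 mitochondrial gene higher and 1 lower. With each measured probe set counted singly, chosen after seeing the data, 1 mitochondrial probe set (of Cars2) was lower.

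The cytosolic median stayed between -0.048 and -0.029 and the mitochondrial one between -0.023 and 0.0084, negative in 3 of 8 alternatives. Of the single genes, 6 changed sign in some alternative, among them Aars (-0.16) and Hars2 (0.15) with suffix-free probe sets. ATF4-responsive genes were counted after seeing the data, and the share of all genes past the threshold is in brackets. Without the filter, 7 of 29 were higher and 3 lower (13.6%). With the mean of probe sets, 3 of 16 were higher and 2 lower (9.66%). With suffix-free probe sets, 4 of 15 were higher and 2 lower (12%). Of 20 genes, 9 were higher and 3 lower at 1.1-fold (36%), 3 and 1 at 1.5-fold (1.34%), and 1 and 0 at 2-fold (0.323%). No paired analysis was possible because each genotype is 1 pooled sample. Precision is limited by 2 arrays, and signal over background is not known.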

Other observations

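Genes that work beside the synthetases were also mostly near equality. Of the 4 measured cytosolic elongation factors, 0 were past 1.2-fold, and Eef1a1, which delivers charged transfer RNA to the ribosome, read 13.86 in Yap+/- and 13.98 in Yap+/+ liver. Of 6 measured charging and tRNA helpers, 1 was past it, where 11.5% of all measured genes were. This gene, Prorsd1, related to the editing domain of prolyl-tRNA synthetase, read 8.50 in Yap+/- and 8.19 in Yap+/+ liver, 1.24-fold higher. Aarsd1, a free-standing relative of the alanyl editing domain, differed by -0.24, and Tarsl2, a second threonine enzyme that the naming pattern leaves out, by -0.0051.

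Of the 4 kinases that phosphorylate eIF2 in the integrated stress response, 1 was past 1.2-fold, against 11.5% of all measured genes. Eif2ak2, the double-stranded RNA sensor PKR, read 6.49 in Yap+/- and 7.05 in Yap+/+ liver, 1.47-fold lower. Eif2ak3, the endoplasmic reticulum kinase PERK, read 7.81 in Yap+/- and 7.56 in Yap+/+ liver. Eif2ak4, the kinase GCN2 that senses uncharged transfer RNA, differed by 0.066. Interferon-gamma responsive genes had 6 of 13 past 1.2-fold, all higher, against 6.02% of measured genes higher by that size. Their median was 0.24, and Wars, which belongs to the same known response, differed by -0.10 on its brightest probe set. That probe set has the suffix x and can bind related transcripts. The interferon-gamma list was chosen with earlier results of these arrays known, so its direction is given as values only. Macrophage markers (12 of 12), sinusoidal endothelial markers (5 of 6 measured) and the single measured neutrophil and lymphocyte markers, S100a9 at 1.43 and Ccl5 at 0.62, also read higher in Yap+/- liver. Their part in the interferon-gamma values was not tested.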
